A study of Homo sapiens with 6 samples.

Results

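The 8 genes NCL, NPM1, NPM3, NOLC1, TCOF1, COIL, MYBBP1A and NOP53 encode proteins of the nucleolus and of the Cajal body. They were chosen by symbol from a table of 31966 genes. Each symbol had 1 row, and all 8 genes passed the filter on low counts that left 18486 genes for testing. Their messenger RNAs were measured by bulk RNA sequencing in Kasumi-1, a human cell line from acute myeloid leukaemia with the RUNX1-RUNX1T1 fusion gene. In 3 samples (shFBL) the cells expressed a doxycycline-inducible hairpin RNA against FBL, and in 3 samples (shLUC) a hairpin against luciferase, a gene these cells lack. Both groups received doxycycline at 100 ng/ml for 72 h, so exposure to the drug and expression of a hairpin are shared. The FBL product, fibrillarin, is the methyltransferase of box C/D small nucleolar particles, which methylate the ribose of ribosomal RNA. The comparison addresses how transcript levels differ once FBL messenger RNA is lowered, and the level of fibrillarin protein was not examined here. The labels do not tell hairpins against FBL apart, so different hairpins could not be compared here. Whether replicates came from separate cultures is not stated in the labels, and p-values reflect spread among these 6 libraries, which may be technical. Nascent proteins from the same study were not analysed here.

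The nucleolus is built in layers around the active ribosomal DNA. In the fibrillar centre and its border, RNA polymerase I transcribes the precursor of ribosomal RNA. The dense fibrillar component, where fibrillarin resides, holds the particles that modify and first cut the precursor. Assembly of the subunits continues in the outer granular component, which is rich in NPM1. Cajal bodies are separate nuclear bodies, built on coilin, in which small nuclear and small nucleolar particles mature, and NOLC1 moves between both compartments. Fast-growing leukaemia cells make ribosomes at a high rate and usually have prominent nucleoli.

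Total counts ranged between 85556322 and 95023102 in shFBL libraries and between 88541034 and 103148412 in shLUC libraries. CPM denotes counts scaled to the library total after adjustment by TMM factors (trimmed mean of M values). FBL itself stood at 54.0, 32.4 and 44.9 CPM in shFBL libraries, against 580, 550 and 544 CPM in shLUC libraries. This was a 12.7-fold lower level (log2 fold change -3.67 ± 0.16, SE, edgeR adjusted p = 3.93e-06). Each library matched its label. Of the 8 markers of the line, RUNX1T1, RUNX1, KIT, MPO, CD33 and SPI1 lay above 10 CPM in both groups. CD34, a progenitor surface protein, averaged 4.04 CPM in shFBL libraries and 2.55 CPM in shLUC libraries and rose (log2 fold change 0.67 ± 0.13, SE; edgeR adjusted p = 0.0024). PTPRC averaged 0.954 CPM in shFBL and 0.759 CPM in shLUC libraries. MPO, the myeloid granule enzyme, fell (-0.42 ± 0.11, edgeR adjusted p = 0.0134). Summed markers of other cell types stayed under 1 CPM. The 3 T cell genes summed to 0.0542 to 0.249 CPM in shFBL and 0.218 to 0.389 CPM in shLUC libraries. The 4 of 5 epithelial genes with a row summed to 0.0868 to 0.0975 and 0.0307 to 0.0965 CPM, with CDH1 at 0 in every shFBL library and KRT18 at 0 in every shLUC library, and the 3 of 4 fibroblast genes with a row to 0.339 to 0.412 and 0.182 to 0.336 CPM. Mitochondrial genes took 16.9%, 18.8% and 14.7% of counts in shFBL libraries and 12.4%, 15.2% and 13.8% in shLUC libraries, and their part in the results was not tested beyond a fit without them, in which the same number of the 8 genes was called. Over all tested genes 32.8% were called (edgeR quasi-likelihood, Benjamini-Hochberg adjusted p under 0.05), 17.0% lower and 15.8% higher in shFBL. The number called was 6060, and it was 3923 without shFBL replicate 2 and 4017 without shFBL replicate 3. Of these calls 48.2% were higher, or 58.7% under upper-quartile scaling. The first principal component separated the groups. The second held 19.2% of the variance and ran between shLUC replicate 1 at -17.8 and shLUC replicate 2 at 21.2.

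Of the 8 genes, 6 fell in FBL knockdown (NCL, NOLC1, TCOF1, MYBBP1A, NPM1 and NPM3), 0 rose, and NOP53 and COIL did not pass the test. This stands beside 17.0% of all tested genes called lower, and 27.7% of those at 100 CPM or more. The 8 genes were chosen with earlier results of these data known, and the comparison was not matched for level. In the 6 genes that fell, every shFBL library lay below every shLUC library, a pattern seen in 23.1% of all tested genes. With COIL, whose shFBL libraries all lay above, 7 of the 8 had groups that did not overlap, against 45.2% of all tested genes. The median log2 fold change of the 8 was -0.49, against -0.01 over all tested genes. Falls were steepest for nucleolin and NOLC1, by 60.1% and 54.6% of the control level, and shallow for both nucleoplasmin-family genes, whose calls were lost in several alternative settings. The 8 transcripts together took 0.0622%, 0.0606% and 0.0643% of all counts in shFBL libraries, and 0.0885%, 0.0795% and 0.0831% in shLUC libraries. CPM values are relative to all other transcripts, and in bulk RNA fewer cells of a kind and less RNA per cell cannot be told apart.

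**Figure D1:**
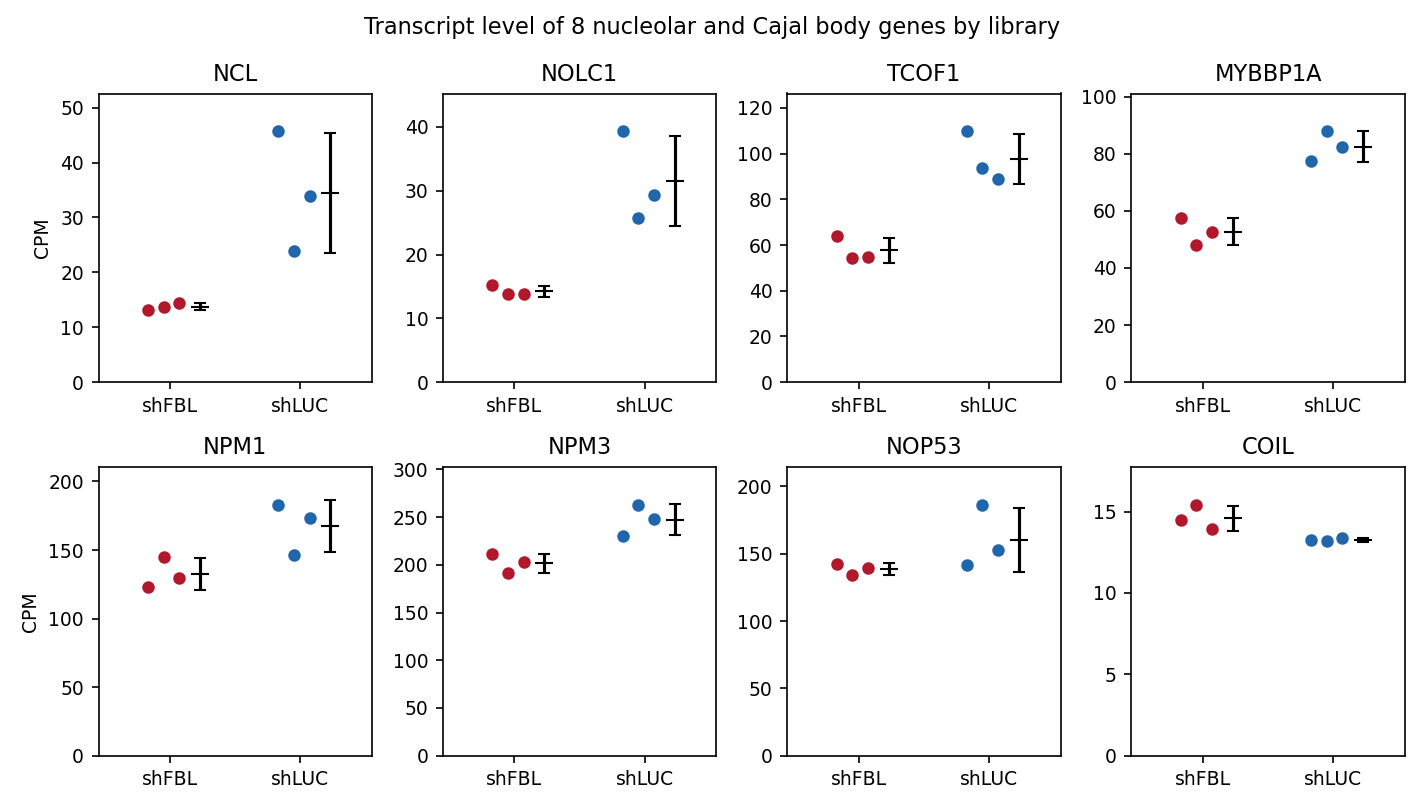
Each panel plots 1 gene, with CPM on the vertical axis from 0, a point for each library, and the mean with its SD (n = 3) as a bar beside the points; shFBL is on the left and shLUC on the right. NCL lies between 13.1 and 14.3 CPM in shFBL libraries and between 23.9 and 45.7 CPM in shLUC libraries, while NOP53 overlaps between the groups.

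The proteins are abundant in cells in general, but the transcripts counted here spanned a wide range. NPM3, NPM1 and NOP53 exceeded 100 CPM over all libraries, whereas NCL, NOLC1 and COIL lay under 25 CPM. COIL averaged 13.9 CPM, with 34.2% of tested genes above it, and NCL 24.1 CPM, with 26.0% above it. By these counts, these 3 transcripts were the lowest of the 8, though most tested genes lay below them. The name abundant concerns proteins, which RNA counts do not measure. How strand and multiply aligned reads were handled is not given, so low counts need not mean scarce transcripts.

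Nucleolin (NCL, ENSG00000115053, GRCh38 chromosome 2, 231453531 to 231483641, minus strand) is an RNA-binding phosphoprotein that takes part in RNA polymerase I transcription and early processing of the precursor. Its transcript stood at 13.1, 13.7 and 14.3 CPM in shFBL libraries, against 45.7, 23.9 and 33.8 CPM in shLUC libraries. The shFBL libraries lay close together, and the shLUC libraries differed among themselves by far more, with replicate 1 highest and replicate 2 lowest. The log2 fold change was -1.33 ± 0.19 (SE), a 2.51-fold lower level (edgeR quasi-likelihood test, adjusted p = 0.000453). It was -1.08 without shLUC replicate 1 and -1.54 without shLUC replicate 2. Small nucleolar RNA genes lie in introns of NCL, and 2 of those had a row, SNORA75 with 5, 3 and 9 counts in shFBL and 1, 0 and 4 counts in shLUC libraries, and SNORD82 with 1 count in all, too few to compare. The processed copy NCLP1 had 39 counts over all libraries and was not tested.

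NOLC1 (ENSG00000166197, chromosome 10, 102152176 to 102163871, plus strand), also called Nopp140, is a chaperone of small nucleolar particles that connects nucleolus and Cajal body. NOLC1 messenger RNA stood at 15.3, 13.8 and 13.8 CPM in shFBL libraries, against 39.3, 25.8 and 29.3 CPM in shLUC libraries. Here too the groups were apart, and the same control library, replicate 1, was the highest. NOLC1 had a log2 fold change of -1.14 ± 0.14 (SE; edgeR adjusted p = 0.000228), a 2.2-fold lower level.

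Treacle (TCOF1, ENSG00000070814, chromosome 5, 150357629 to 150400308, plus strand) is a relative of NOLC1 in its repeat structure, binds RNA polymerase I and the upstream binding factor, and is the gene most often mutated in Treacher Collins syndrome. The TCOF1 transcript reached 64.1, 54.2 and 54.8 CPM in shFBL libraries, against 110, 93.9 and 89.0 CPM in shLUC libraries. The groups were well apart, by more than the spread within either. TCOF1 had a log2 fold change of -0.76 ± 0.10 (SE; edgeR adjusted p = 0.000398), or 1.69-fold lower.

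MYBBP1A (ENSG00000132382, chromosome 17, 4538897 to 4555631, minus strand) binds RNA polymerase I and takes part in precursor processing, and it is known to leave the nucleolus when ribosome synthesis is disturbed. Its level was 57.6, 47.9 and 52.7 CPM in shFBL libraries, against 77.3, 87.9 and 82.3 CPM in shLUC libraries. In contrast to NCL and NOLC1, control replicate 1 was the lowest of the 3 controls here. MYBBP1A had a log2 fold change of -0.65 ± 0.09 (SE; edgeR adjusted p = 0.000523), or 1.56-fold lower. Its 3' end overlaps the end of SPNS2, on the opposite strand, by 139 bases. The lipid transporter gene SPNS2 rose (0.46 ± 0.13, edgeR adjusted p = 0.0175), and without a stated strand setting the reads of both genes in the overlap cannot be told apart.

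NPM1 (ENSG00000181163, chromosome 5, 171387116 to 171411137, plus strand) encodes nucleophosmin, a histone chaperone and scaffold of the granular component that shuttles to the cytoplasm and is a frequent target of mutation in acute myeloid leukaemia. Its transcript stood at 123, 145 and 129 CPM in shFBL libraries, against 183, 146 and 174 CPM in shLUC libraries. The groups did not overlap, but shFBL replicate 2 and shLUC replicate 2 were almost level. NPM1 had a log2 fold change of -0.34 ± 0.10 (SE; edgeR adjusted p = 0.0274), or 1.26-fold lower. Among other settings, the call was lost without shFBL replicate 1 (-0.29, adjusted p = 0.0829), shFBL replicate 3 (-0.30, 0.131), shLUC replicate 1 (-0.28, 0.0628) or shLUC replicate 3 (-0.32, 0.103), under upper-quartile scaling (-0.27, 0.0686), and with a stricter filter on low values (-0.29, 0.0628).

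Reads of NPM1 can be shared with processed copies of its messenger RNA elsewhere in the genome. The table held 31 such rows named NPM1P, of which 12 were tested. To show how alike they are, bases 61 to 120 of the NPM1 coding sequence are printed beside the same stretch of a pair of copies, from GENCODE v29 transcripts on GRCh38, 5′ to 3′, with capitals at the bases where a copy differs.
NPM1: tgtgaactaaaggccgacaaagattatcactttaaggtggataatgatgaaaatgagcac
NPM1P27: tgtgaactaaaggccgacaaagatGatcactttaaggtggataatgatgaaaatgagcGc
NPM1P39: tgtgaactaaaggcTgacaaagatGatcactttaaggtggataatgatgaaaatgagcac
Each copy differs from NPM1 at 2 of 60 bases in this stretch. Over its length NPM1P27 (chromosome 5, 93682838 to 93683667, minus strand) was 98.2% identical to the NPM1 messenger RNA, and NPM1P39 (chromosome 1, 27206930 to 27207796, plus strand) 95.4%. NPM1P27 stood at 30.5, 37.1 and 33.4 CPM in shFBL libraries, against 48.6, 40.1 and 46.3 CPM in shLUC libraries, and fell (-0.42 ± 0.10, edgeR adjusted p = 0.0106). NPM1P6 fell as well (-0.53 ± 0.15, edgeR adjusted p = 0.02), and the other 10 tested copies did not pass. The copies are counted in rows of their own, and their summed count equalled 35.7% ± 1.1 of that of NPM1 in shFBL libraries and 37.6% ± 0.2 in shLUC libraries (SD, n = 3 each; exact permutation p = 0.1, 2-sided, which is the least possible with 3 against 3). With the copies added to NPM1 before the fit, the log2 fold change was -0.36 (edgeR adjusted p = 0.0213). The level of NPM1 in CPM or RPKM is uncertain for this reason, while the direction was kept with the copies added.

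NPM3 (ENSG00000107833, chromosome 10, 101781325 to 101783413, minus strand) encodes a smaller relative of nucleophosmin that binds it. The NPM3 level was 211, 191 and 203 CPM in shFBL libraries, against 230, 263 and 248 CPM in shLUC libraries. All shFBL libraries lay below all shLUC libraries by a narrow margin. NPM3 had a log2 fold change of -0.29 ± 0.08 (SE; edgeR adjusted p = 0.0202), or 1.23-fold lower. Among other settings, the call was lost without shFBL replicate 2 (-0.26, adjusted p = 0.0891), shFBL replicate 3 (-0.27, 0.121) or shLUC replicate 3 (-0.29, 0.0792), and narrowly under upper-quartile scaling (-0.23, 0.0519). The remaining family member NPM2, best known from the egg, had at most 1 count in a library and was not tested.

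NOP53 (ENSG00000105373, chromosome 19, 47745522 to 47757058, plus strand) is an assembly factor of the large ribosomal subunit, which in yeast brings the helicase Mtr4 and the exosome to the precursor, and it also binds the 5S ribonucleoprotein. Its transcript stood at 142, 134 and 139 CPM in shFBL libraries, against 141, 186 and 153 CPM in shLUC libraries. The groups overlapped, since shFBL replicate 1 lay just above shLUC replicate 1. NOP53 had a log2 fold change of -0.21 ± 0.10 (SE; edgeR adjusted p = 0.146), with a 95% interval of -0.44 to 0.02. Without shLUC replicate 1 it passed (-0.30, adjusted p = 0.0432), and without shLUC replicate 2 it was at -0.09. The antisense gene NOP53-AS1 overlaps its last 23 bases and was at 0.07 ± 0.13 (edgeR adjusted p = 0.698).

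COIL (ENSG00000121058, chromosome 17, 56938187 to 56961054, minus strand) encodes coilin, the scaffold of the Cajal body. COIL messenger RNA was at 14.5, 15.4 and 13.9 CPM in shFBL libraries, against 13.3, 13.2 and 13.4 CPM in shLUC libraries. All shFBL libraries lay above all shLUC libraries, the opposite order to the 6 genes that fell, with a small difference. COIL had a log2 fold change of 0.14 ± 0.09 (SE; edgeR adjusted p = 0.248), with a 95% interval of -0.05 to 0.33. It did not pass in any of the 17 alternative settings tried, in which it ranged from 0.10 to 0.20. The interval excludes falls of the size estimated for each of the 6 genes that fell. The processed copy COILP1 had 20 counts over all libraries and was not tested.

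**Figure D2:**
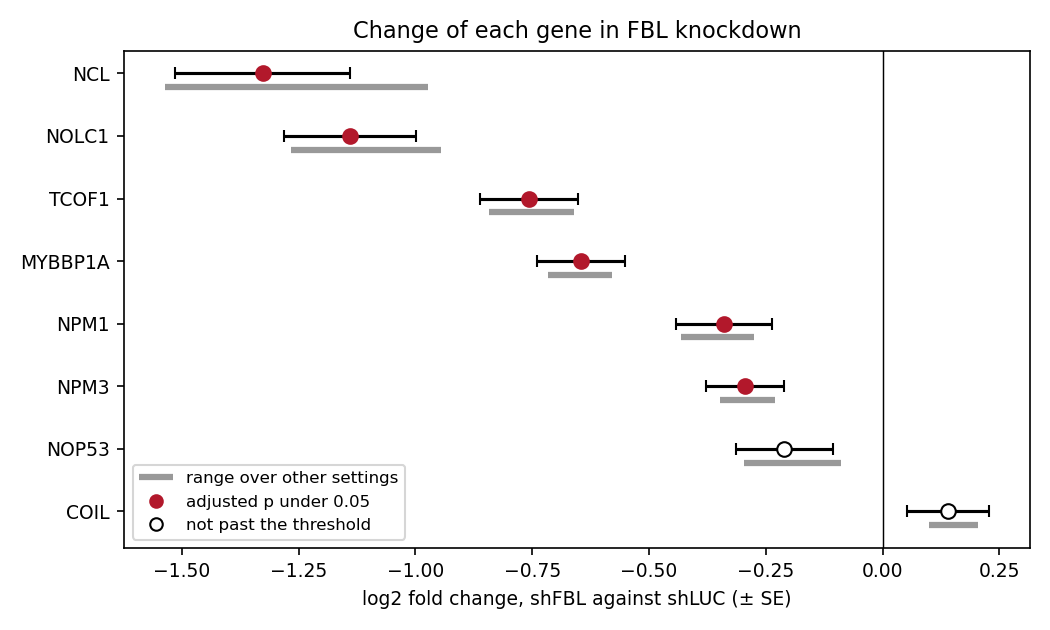
The horizontal axis is the log2 fold change of shFBL against shLUC, with a point and its SE for each of the 8 genes (n = 3 against 3), filled where the adjusted p is under 0.05, and a grey bar for the range over the other settings. NCL and NOLC1 sit farthest to the left at -1.33 and -1.14, and COIL alone lies to the right of 0 at 0.14.

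Levels were then compared between genes per length, as RPKM (reads per kilobase of gene, scaled to the TMM-adjusted library total). In shFBL libraries the order from high to low was NPM3 (217 ± 14 RPKM, SD, n = 3), NPM1 (34.5 ± 2.6), NOP53 (25.9 ± 1.1), MYBBP1A (8.49 ± 0.90), TCOF1 (5.11 ± 0.57), COIL (4.81 ± 0.24), NOLC1 (3.59 ± 0.27) and NCL (1.98 ± 0.07). In shLUC libraries it was NPM3 (267 ± 19 RPKM, SD, n = 3), NPM1 (43.8 ± 4.9), NOP53 (30.1 ± 4.5), MYBBP1A (13.3 ± 0.9), TCOF1 (8.67 ± 0.94), NOLC1 (7.94 ± 1.74), NCL (4.98 ± 1.56) and COIL (4.38 ± 0.03). The first 5 places were the same in both groups. TCOF1 and COIL overlapped in shFBL libraries, and in shLUC libraries TCOF1 overlapped NOLC1, NOLC1 overlapped NCL, and NCL overlapped COIL. COIL, last in the controls, stood above NOLC1 and NCL in the knockdown. RPKM values rest on the length the authors give each gene, which joins all annotated exons, 6929 bases for NCL and 928 bases for NPM3. A gene with long alternative exons appears lower on this scale. The order between genes also depends on how reads were assigned to genes, which is not fully given.

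**Figure D3:**
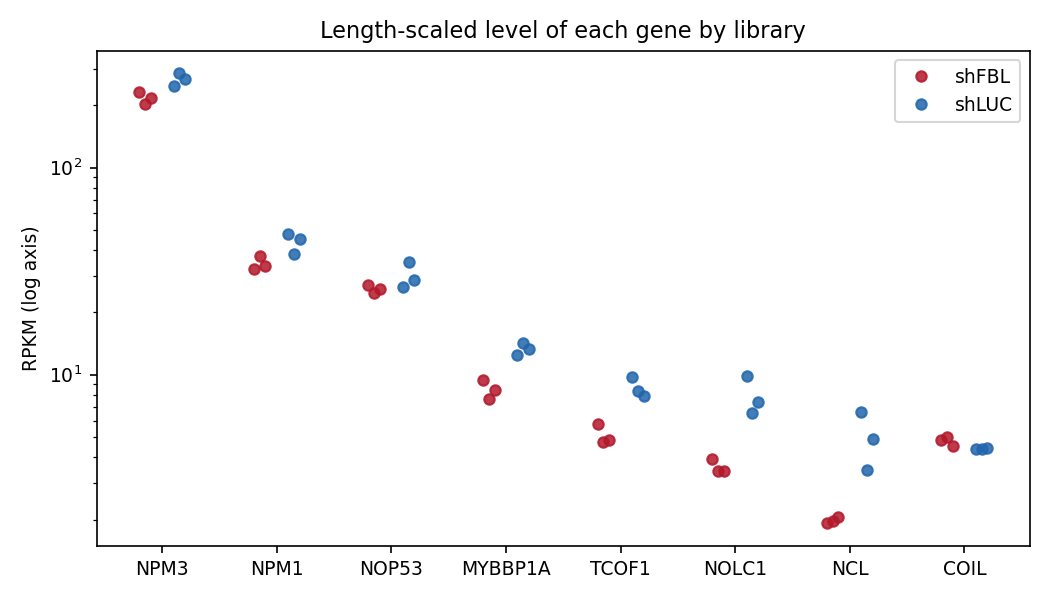
RPKM is on a log axis, with a point for each library, shFBL left of shLUC at each gene, and genes ordered by their mean in shLUC libraries. NPM3 lies between 203 and 285 RPKM in all 6 libraries, and NCL between 1.92 and 2.05 RPKM in shFBL and 3.46 and 6.58 RPKM in shLUC libraries.

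Ratios within a library describe how pairs of the genes stood relative to each other. NCL stood at 0.0591, 0.0523 and 0.0613 of the RPKM of NPM1 in shFBL libraries, against 0.138, 0.0902 and 0.108 in shLUC libraries. COIL stood at 1.24, 1.47 and 1.33 times NOLC1 in shFBL libraries, against 0.442, 0.669 and 0.598 times in shLUC libraries. For both ratios the groups were apart (exact permutation p = 0.1, 2-sided). NOLC1 was at 0.704 ± 0.024 of TCOF1 in shFBL and 0.911 ± 0.121 in shLUC libraries (SD, n = 3 each; exact permutation test p = 0.1). The ratio of NPM3 to NPM1 overlapped between groups, at 6.33 ± 0.84 in shFBL and 6.17 ± 1.14 in shLUC libraries (SD, n = 3 each; exact permutation test p = 0.9), and so did that of NCL to NOLC1, at 0.554 ± 0.054 and 0.619 ± 0.077 (SD, n = 3 each; exact permutation test p = 0.3). TCOF1 was at 0.602 ± 0.026 of MYBBP1A in shFBL and 0.655 ± 0.110 in shLUC libraries (SD, n = 3 each; exact permutation test p = 0.8). With a least possible p of 0.1, none of these 6 ratios could pass a threshold of 0.05. Counts of copies relative to COIL, NCL and NPM1 were tested in the same way, with the same limit.

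The start regions of the genes at both ends of the range, NCL with the steepest fall and COIL with no call, are shown for context. RefSeq windows (GRCh38.p14) matched 6 of the 8 genes, at the start that RefSeq gives. For NCL this start lies inside the GENCODE gene, whose annotated span reaches farther upstream. Each line gives the 250 bases before the RefSeq start, 5′ to 3′ on the strand of the gene, with capitals at GGGCGG (the GC box), CCAAT and CACGTG (the E-box bound by MYC and its relatives), read on both strands.
NCL (chr2:231464485-231464734, minus strand): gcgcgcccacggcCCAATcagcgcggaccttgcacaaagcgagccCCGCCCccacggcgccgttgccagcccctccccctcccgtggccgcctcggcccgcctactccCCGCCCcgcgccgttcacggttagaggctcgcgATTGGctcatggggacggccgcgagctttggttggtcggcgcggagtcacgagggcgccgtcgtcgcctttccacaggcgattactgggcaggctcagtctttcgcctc
COIL (chr17:56961051-56961300, minus strand): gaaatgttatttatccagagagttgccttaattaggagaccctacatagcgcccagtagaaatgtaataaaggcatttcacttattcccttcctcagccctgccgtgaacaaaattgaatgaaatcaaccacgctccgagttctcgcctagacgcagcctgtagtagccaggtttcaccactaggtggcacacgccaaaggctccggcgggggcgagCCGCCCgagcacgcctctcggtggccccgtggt
NCL holds 2 CCAAT boxes and 2 GC boxes here, and COIL 1 GC box. In the whole window of 300 bases (250 before and 50 after the start), GGGCGG was found in 4 of the 6 genes and in 45.0% of 35116 RefSeq windows, and CCAAT in 2 of the 6 and in 34.6%. CACGTG was found in 1 of the 6, MYBBP1A, 28 to 33 bases into the transcript, and in 7.26% of all windows. The motifs do not overlap each other in NCL and COIL. These are matches of letters and say nothing of binding.

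The genes with the most similar profile were then named for each member. Likeness was the root mean square difference over the 6 libraries between log2 CPM values, each centred on the shLUC mean, among 7209 genes with at least 10 CPM. NCL was nearest to the splicing factor SF3B3 (difference of 0.12), the chaperone HSP90AB1 (0.12) and the topoisomerase TOP1 (0.12). NOLC1 was nearest to the elongation factor SUPT6H (0.05), the translation initiation scaffold EIF4G1 (0.06) and the histone chaperone NASP (0.07). TCOF1 was nearest to LAS1L (0.03), an assembly factor of the large ribosomal subunit, SUPT5H (0.04) and DNAJC11 (0.04), and MYBBP1A to PIMREG (0.02), the export factor ALYREF (0.02) and ACTB (0.03), which encodes beta-actin. Since these genes were picked for profiles like those of genes that fell in the same 6 libraries, that they are lower in shFBL follows from the choice and is no further result. ACTB, often used as a constant reference, stood at 6437 CPM in shFBL and 9926 CPM in shLUC libraries. Profiles nearest to NPM1 were SUGT1, COPB2 and GTF2H3, and among those nearest to NPM3 were CCDC86 and the unnamed gene ENSG00000275719. COIL was nearest to POLE3, AMIGO1 and FBXW11, and NOP53 to UNK, POP7 and CDCA4.

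Genes that work with these proteins were counted next, in 11 lists with 102 tested genes. Among those, 41 fell, 4 rose and 57 did not pass, with a median log2 fold change of -0.25. Under upper-quartile scaling 36 fell and 7 rose. The number that rose was 2 without shFBL replicate 2, shFBL replicate 3 or shLUC replicate 3, where 31, 28 and 33 fell, and without shLUC replicate 2 the counts were 54 lower and 3 higher. The counts over all libraries stand beside 17.0% lower and 15.8% higher over all tested genes and a median of -0.01. The lists were not matched for level, and among genes at 100 CPM or more 27.7% were called lower. Members below are given as log2 fold change ± SE with adjusted p from edgeR's quasi-likelihood test.

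**Figure D4:**
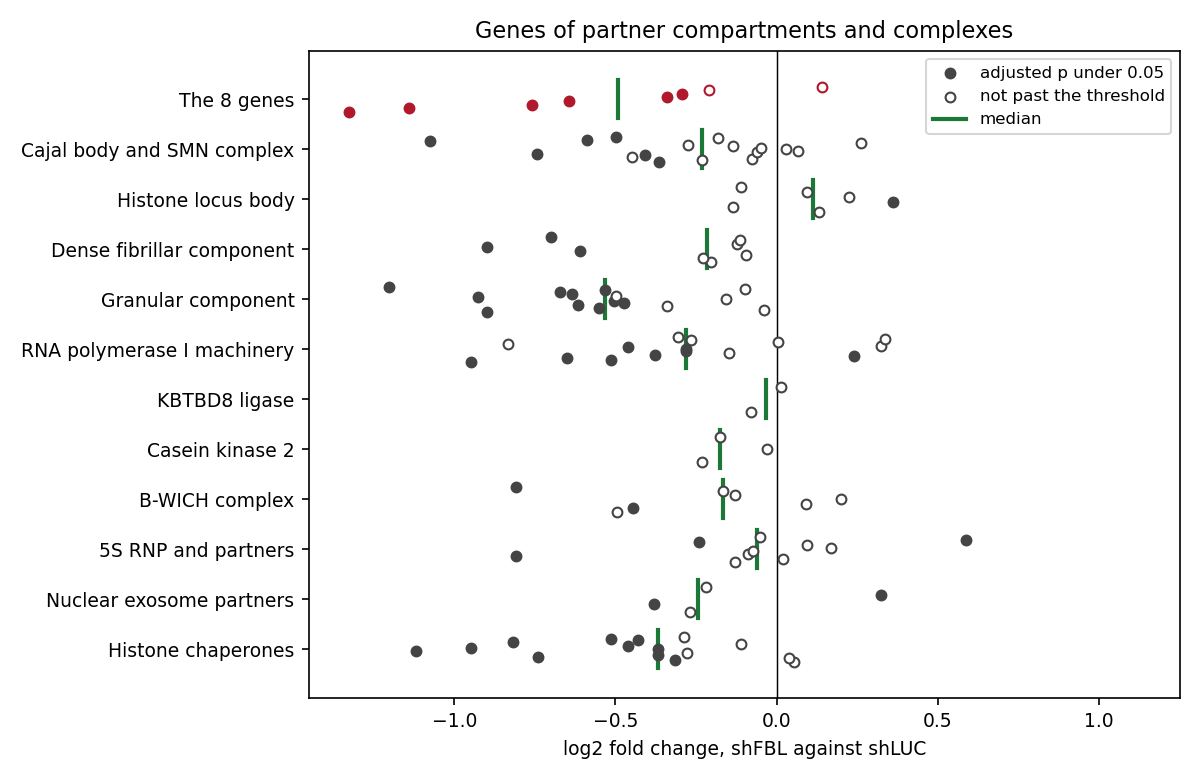
Each point is a gene, by its log2 fold change of shFBL against shLUC, filled where the adjusted p is under 0.05, with a green line at the median of each list and the 8 nucleolar and Cajal body genes in red at the top. The granular component and the histone chaperones lie mostly left of 0, with medians of -0.53 and -0.37, and the histone locus body has its median at 0.11.

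In the nucleolus, the granular component had the lowest median of the 11 lists, -0.53, with 10 of 15 genes lower and 0 higher. Its largest falls were in the methyltransferase FTSJ3 (-1.20 ± 0.15, adjusted p = 0.000208), the ribosomal RNA methyltransferase NOP2 (-0.93 ± 0.12, 0.000228) and SURF6 (-0.90 ± 0.11, 0.000169), a structural nucleolar protein. Of 8 genes of the dense fibrillar component, fibrillarin left aside, 3 fell and 0 rose, with a median of -0.22. These were GAR1 (-0.90 ± 0.10, 0.000104) and the pseudouridine synthase DKC1 (-0.61 ± 0.10, 0.00128), both of the box H/ACA particle, and RRP9 (-0.70 ± 0.11, 0.000914), a protein of the U3 particle. RNA polymerase I and its factors, which TCOF1 and NOLC1 contact, had 7 of 15 genes lower and POLR1D (0.24 ± 0.08, 0.0483) higher, with a median of -0.28. POLR1A, the largest subunit (-0.95 ± 0.13, 0.000447), POLR1C (-0.65 ± 0.11, 0.00106) and POLR1B (-0.51 ± 0.09, 0.00147) fell most.

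Partners of coilin are set beside the shares over all tested genes, 17.0% lower and 15.8% higher. Of 17 genes of the Cajal body and of the SMN complex, which assembles small nuclear particles, 6 fell and 0 rose, with a median of -0.23. The U6 assembly factor SART3 (-1.08 ± 0.13, 0.000208), GEMIN5, which recognises small nuclear RNA (-0.74 ± 0.13, 0.00153), and the cap hypermethylase TGS1 (-0.59 ± 0.16, 0.0146) fell most, and TGS1 lost its call in 4 of 16 settings. SMN1, counted among the 6 (-0.36 ± 0.10, 0.0187), and SMN2, not called (-0.23 ± 0.13, 0.197), are near-identical and can share reads. Their values, and the call of SMN1, are therefore uncertain. In the histone locus body, a nuclear body that also contains coilin in some cells, 0 of 6 genes fell, with a median of 0.11. LSM10, a protein of the U7 particle, rose (0.36 ± 0.08, 0.00794). A rise in 1 of 6 genes lies near the share called higher over all tested genes.

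Further lists concern regulators and partners of single proteins. Each is short, and its count was not tested against the shares over all tested genes, 17.0% lower and 15.8% higher. Casein kinase 2, which phosphorylates NOLC1, TCOF1, NCL and NPM1, had 0 of 3 subunit genes called, with CSNK2A1 at -0.23 ± 0.08 (adjusted p = 0.0557) and CSNK2B at -0.18 ± 0.09 (0.177). Of the ligase that joins ubiquitin to TCOF1 and NOLC1, KBTBD8 was at -0.08 ± 0.19 (0.774) and CUL3 at 0.01 ± 0.16 (0.958), both changing sign between settings. In the B-WICH chromatin complex, which contains MYBBP1A, 2 of 7 genes fell and 0 rose, namely the helicase DDX21 (-0.81 ± 0.17, 0.00501) and BAZ1B (-0.45 ± 0.10, 0.00485). Among 4 genes of the nuclear exosome and its cofactors, EXOSC10 fell (-0.38 ± 0.11, 0.0212) and C1D rose (0.32 ± 0.11, 0.0458), and the call was lost in 4 and 9 of 17 settings.

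Of 10 genes of the 5S ribonucleoprotein and of the stress signalling it takes part in, 2 fell, 1 rose and 7 did not pass. These counts lie near the shares over all tested genes, 17.0% lower and 15.8% higher. The median of the 10 genes was -0.06. The assembly factor RRS1 fell (-0.81 ± 0.14, 0.00125). CDKN1A, which encodes the cell-cycle inhibitor p21, rose (0.59 ± 0.09, 0.000886), at 16.0 CPM in shFBL libraries and 10.7 CPM in shLUC libraries. RPL5 (-0.13 ± 0.08, 0.267), RPL11 (0.02 ± 0.08, 0.878) and MDM2 (0.17 ± 0.12, 0.321) did not pass. Histone chaperones, the class to which the nucleoplasmin family belongs, had 10 of 15 tested genes lower and 0 higher, with a median of -0.37. NASP (-1.12 ± 0.11, 7.6e-05), the FACT subunit SUPT16H (-0.95 ± 0.14, 0.000564) and CHAF1A, the large subunit of the replication-coupled chaperone CAF-1 (-0.82 ± 0.10, 0.000246), fell most.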

How the data were processed

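The authors deposited whole-number counts per Ensembl gene for 6 libraries and RPKM values of the same libraries. Among tools, featureCounts, HISAT2, cutadapt 1.18 and edgeR are listed, with build GRCh38, per the submitters' processing notes. The sources used here do not give the annotation release, the strand setting or how multiply aligned reads were counted. All 191796 RPKM values were recovered from counts, gene lengths and TMM-scaled totals (relative tolerance 1e-06). All columns were used.

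Counts were filtered with filterByExpr (minimum count 10, minimum total 15) and scaled with TMM factors (trimmed mean of M values). Groups were compared over all tested genes with edgeR 4.0.16 in R 4.3.3 (glmQLFit, glmQLFTest, Benjamini-Hochberg adjustment, threshold 0.05). SEs were derived from the F statistic. The test was tried on simulated data. Alternatives used other scalings and filters, DESeq2 1.42.0, limma 3.58.1 (voom, and trend on log2(RPKM + 1) and log2(RPKM + 0.1)), a replicate block, omission of each library, a fit without mitochondrial and the 20 highest genes, and NPM1 summed with its copies.

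The 8 members and the lists were chosen with earlier results of these data known. Named were all members, FBL, copies of members, small nucleolar RNAs inside members, up to 3 called genes per list with the largest change at a mean of at least 1 CPM (otherwise the 2 with the smallest p), and the 3 most similar profiles per member. Some results that this rule selects are not reported here. POLR1D, RPL5, RPL11, MDM2, SMN1, SMN2, NPM2 and the overlapping genes were added after their values were seen. Positions came from GENCODE v29, matched by Ensembl identifier. Intervals and p-values cover the spread between samples only.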

Additional observations from a re-analysis of the deposited data

How the results depend on the processing

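NCL, NOLC1, TCOF1 and MYBBP1A kept their direction and call, and COIL its direction with no call, in all 17 alternatives, from -1.54 to -0.97 for NCL and from 0.10 to 0.20 for COIL. Correlations of deviations were -0.462, -0.377 and 0.127 for libraries with equal replicate numbers, and between -0.283 and 0.515 for unequal numbers. With 3 libraries a group, these values cannot settle whether the numbers pair the libraries. With a replicate block 3833 of all genes were called instead of 6060, NPM1 was at -0.34 (edgeR adjusted p = 0.102) and NPM3 at -0.29 (0.0847), both not called, 4 of the 8 genes kept a call, and of the list genes 31 fell and 2 rose. Under upper-quartile scaling NPM1 was at -0.27 and NPM3 at -0.23, and with a stricter filter NPM1 was at -0.29, each without a call for the gene named. The cause was not tested. With each library left out in turn, calls over all genes ranged from 3923 to 6942, NPM1 from -0.43 to -0.28, NPM3 from -0.35 to -0.25 and NOP53 from -0.30 to -0.089, and 4 to 6 of the 8 genes were called. CUL3 changed sign with library size only (-0.0015) and ranged from -0.15 to 0.12 with a library left out (-0.04 without shFBL replicate 2), and KBTBD8 from -0.25 to 0.076 (0.02 without shFBL replicate 1). Of 456 other values for 27 named list genes, 421 kept direction and call, 29 lost the call, 1 gained it and 5 changed sign. With 3 libraries a group, exact tests cannot go below p = 0.1.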
